A study of Mus musculus with 39 samples.

Results

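The DNA repair genes described here are 47 genes of the main repair pathways of the mouse, and they were taken as the probes whose gene name in the scanner files, or its current symbol, was one of the 47. These names were found on 64 probes, and all 47 genes were among the 14755 genes tested, out of 22339 named genes on the array. A total of 31 genes had 1 probe and 16 had more, and each gene was represented by its brightest probe. The rule that matched probes to genes used no measured value, but the 47 genes were chosen with earlier results of these data known.

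The samples, labelled B6D2F1 x ICR, were mouse oocytes, which came from B6D2F1 females, and embryos made from such oocytes by in vitro fertilization with ICR sperm. Each array carried RNA pooled from 100 oocytes or embryos, and each of 13 conditions had 3 arrays, which the study calls biological replicates. Untreated samples covered GV oocytes, MII oocytes, 1-cell, 2-cell, 4-cell and 8-cell embryos, morulae and blastocysts. Treated zygotes were exposed to 10 µM of a histone deacetylase inhibitor for 6 h from 4 h post insemination (hpi) and were then cultured without it. T247 is an inhibitor described as selective for HDAC3 and MGCD0103 as an inhibitor of class I HDACs, and both were measured in 1-cell embryos at 12 hpi and 2-cell embryos at 24 hpi, while only T247 was measured in 4-cell embryos at 48 hpi. Since every array held pooled RNA, fewer embryos or cells with a transcript and less transcript in each of them cannot be told apart.

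Cells repair DNA by pathways that divide the labour by lesion. Base excision repair removes damaged bases and seals single-strand breaks, mismatch repair corrects replication errors, nucleotide excision repair cuts out bulky lesions, the Fanconi anaemia pathway unhooks crosslinked strands, and breaks through both strands are joined end to end or copied from the sister chromatid by homologous recombination. The oocyte stores many of these transcripts for the zygote, which divides on maternal RNA until its own genome is activated, in the mouse mainly at the 2-cell stage.

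Signals are log2 values after smooth quantile normalization, and a level of one gene is not comparable with that of another, because each probe binds its target differently. LFC is the difference of mean log2 signals between conditions, given with its standard error (SE), and a gene was called when the LFC was at least 1 in size and the limma p adjusted over all 14755 genes was below 0.05. "Rose" and "fell" are used only of called genes. Of the 47 genes, 39 were well above background on every array. Brca1, Wrn, Chek2, Xrcc4 and Polh were not well above background on any array of at least 1 condition, and only a lower bound of the fold is given there. Untreated replicates 1, 2 and 3 of all stages lay on slides 1, 2 and 3, T247 arrays on slides 4 and 5 and MGCD0103 arrays on slide 6, so that treatment and slide cannot be told apart in any comparison with an inhibitor. Replicate 1 of the 2-cell controls stood apart: the correlation over all genes among the 2-cell controls ranged from 0.933 to 0.995, against group means of 0.989 to 0.996 elsewhere. In 16 repair genes it differed from the mean of the other 2-cell controls by over 1 log2 unit, in all 16 in the direction of the 1-cell mean, which it passed by over 0.5 log2 units in Xpa and Ercc1. The mean log2 signal of the 7 2-cell markers on the array, relative to the 75th percentile, was 4.98 to 5.89 in 2-cell controls and at most 2.65 on other untreated arrays. Of 10 cumulus and granulosa cell markers, 3 or 4 were well above background on all 3 arrays of the 1-cell and 2-cell conditions, Inhba, Lhcgr and Ptx3 were not on any of these arrays, and the part of such cells in the results was not tested.

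**Figure D1:**
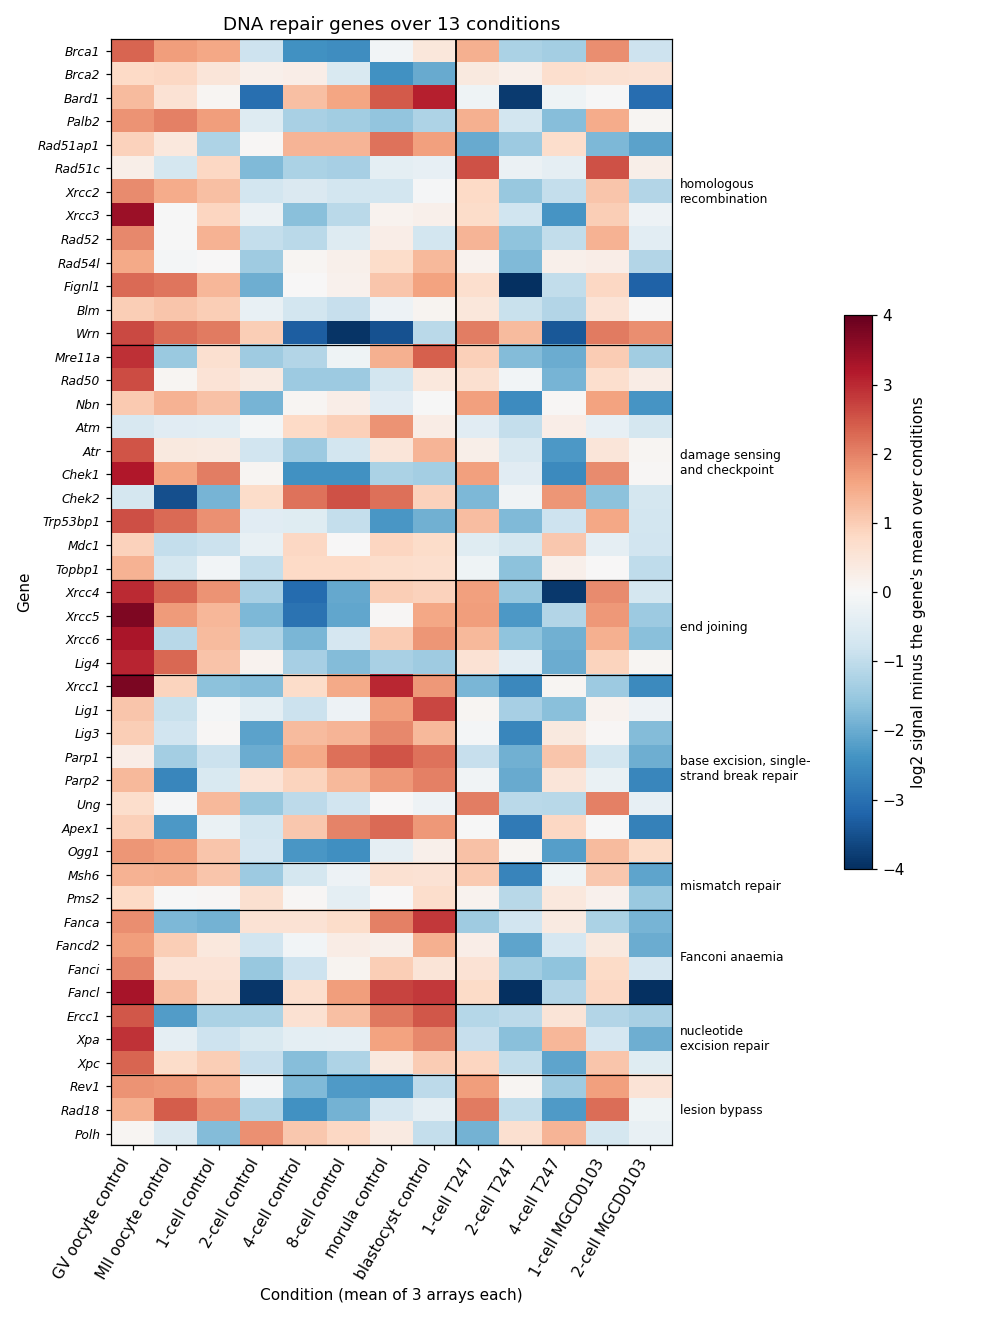
Mean log2 signal of the 47 repair genes (rows, by role) in the 13 conditions (columns, 3 arrays each), shown as the difference from the mean of the gene over the conditions. Red is higher and blue lower, the scale ends at 4 log2 units, and the line after the blastocyst column parts untreated from treated samples. Apex1 and Fignl1 have their lowest means in treated 2-cell embryos and Rad51c its highest in treated 1-cell embryos.

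In 1-cell embryos, collected shortly after the end of the exposure, 1 repair gene was changed by T247 and 2 by MGCD0103. T247 raised 1 of 47 genes and lowered 0, where 5.52% of all genes were called higher and 0.82% lower. MGCD0103 raised 2 and lowered 0, against 3.56% and 0.617% of all genes. The median LFC of the 47 genes was -0.06 with T247 and 0.13 with MGCD0103, beside -0.00 and 0.11 over all genes. The remaining LFCs, of the brightest probes, lay between -0.78 and 0.74 with T247 and between -0.59 and 0.71 with MGCD0103. A second Fancl probe gave 1.51 with T247 and 1.24 with MGCD0103. A second Fanci probe, well above background on 18 of 39 arrays, gave -3.57 and -3.04. With the mean of probes, 1 repair gene was called lower with each inhibitor.

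The gene raised by both was Rad51c, whose product acts in homologous recombination, including the resolution of recombination intermediates. Its log2 signals were 14.86, 14.66 and 14.98 in untreated 1-cell embryos, 16.55, 16.49 and 16.62 with T247 and 16.62, 16.63 and 16.49 with MGCD0103. All treated arrays were above all untreated ones, a 3.29-fold rise with T247 (LFC 1.72 ± 0.15, adjusted p = 6.58e-10) and a 3.35-fold rise with MGCD0103 (LFC 1.74 ± 0.15, adjusted p = 6.41e-10). Both comparisons used the same 3 control arrays. No other repair gene was called with T247 at this stage.

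The other gene raised by MGCD0103 was Polh, the DNA polymerase that copies past ultraviolet damage. Its signals were 3.90, 4.08 and 3.74 in controls, 3.99, 3.72 and 3.52 with T247 and 4.79, 5.02 and 4.97 with MGCD0103. It was well above background only on the MGCD0103 arrays, so that the rise was at least 1.49-fold (adjusted p = 0.00436), and against T247 at least 2.01-fold (adjusted p = 0.0149). The Polh value of 1-cell control replicate 1 had been filled in, the only such value among the 47 genes. The call against the controls held in 6 of 14 other settings, and was lost without control replicate 1 or 3 or MGCD0103 replicate 2 or 3.

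**Figure D2:**
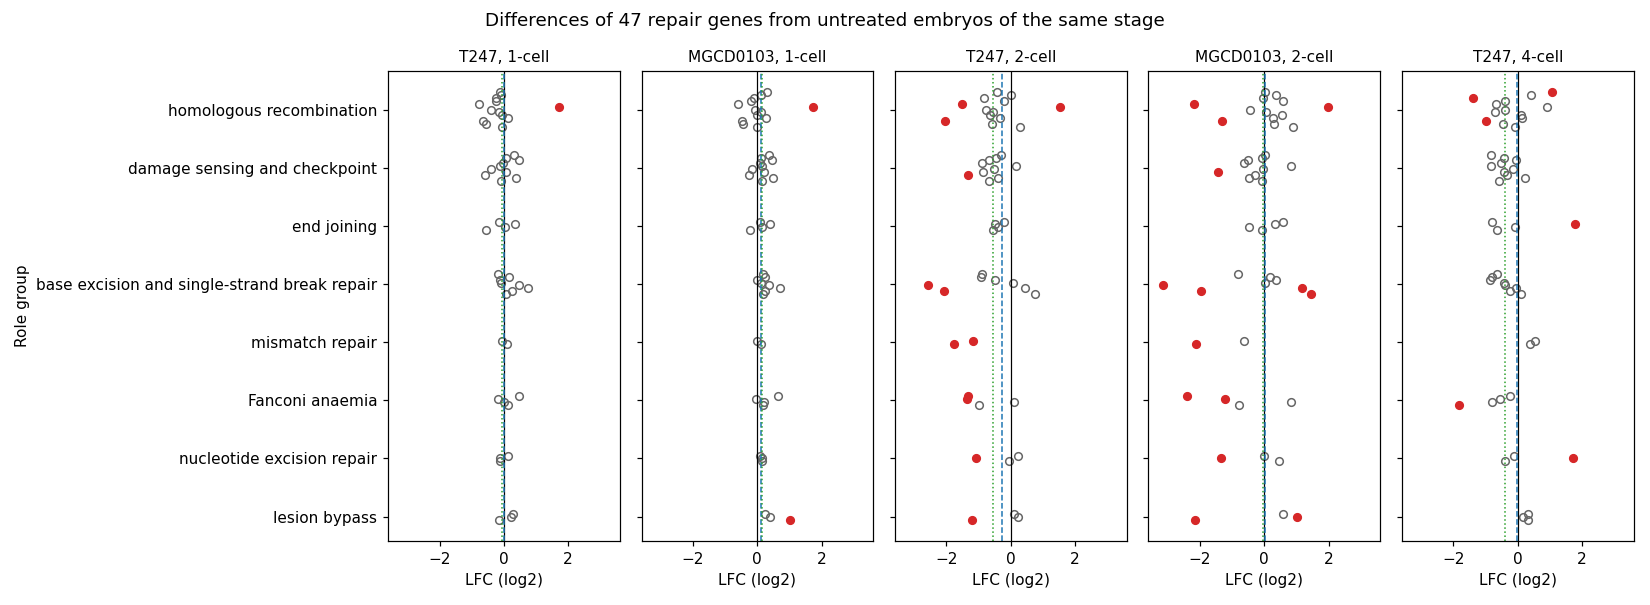
LFC (log2, horizontal axis) of each of the 47 repair genes by role group (vertical axis) in the 5 comparisons of an inhibitor with untreated embryos of the same stage. Filled red points are called genes and open points are not, the dashed blue line is the median over all genes and the dotted green line the median of the 47; the 1-cell panels hold 1 and 2 called genes and the 2-cell panels 12 and 14.

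In 2-cell embryos, collected at 24 hpi, more genes were called than at the 1-cell stage, among the repair genes as among all genes. T247 raised 1 and lowered 11 of the 47 (2.13% and 23.4%), where 8.32% of all genes were called higher and 17.2% lower. MGCD0103 raised 4 and lowered 10 (8.51% and 21.3%), against 11.8% and 16.3% of all genes. The median LFC of the 47 was -0.55 with T247, beside -0.28 over all genes, and -0.03 with MGCD0103, beside 0.04. The split into higher and lower calls moved with the scaling of the arrays: with 75th-percentile scaling it was 2 higher and 5 lower for T247 and 7 and 8 for MGCD0103, and with quantile normalization 2 and 9, and 7 and 10. Over all genes the T247 calls were 1228 higher and 2533 lower, and 2527 and 986 with 75th-percentile scaling.

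Lowered by both inhibitors were 9 genes: Rad51ap1 and Fignl1 of homologous recombination, Parp2 and Apex1 of base excision and single-strand break repair, Pms2 of mismatch repair, Fanca and Fancd2 of the Fanconi anaemia pathway, Xpa of nucleotide excision repair and Polh of lesion bypass. Raised by both was Rad51c. The 2-cell comparisons shared their 3 control arrays, so that this overlap is not independent evidence. The share of all genes lowered by both was not counted. Parp2, Apex1, Fignl1, Pms2 and Rad51ap1 fell with both inhibitors under all 3 scalings. Without control replicate 1, all 12 genes called with T247 and all 14 called with MGCD0103 were called again. The counts rose to 2 higher and 17 lower, and 9 higher and 11 lower, and the share of all genes in that fit was not counted.

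Among the base excision and single-strand break repair genes, T247 lowered 2 of 8 and MGCD0103 lowered the same 2 and raised 2. Parp2 encodes a nuclear poly(ADP-ribose) polymerase that is activated by strand breaks. Its signals were 8.17, 9.72 and 9.41 in untreated 2-cell embryos, 6.80, 6.44 and 6.33 with T247 and 5.82, 6.07 and 5.92 with MGCD0103. No treated array reached the control range, and the fall was 5.94-fold with T247 (LFC -2.57 ± 0.22, adjusted p = 7.91e-11) and 8.95-fold with MGCD0103 (LFC -3.16 ± 0.22, adjusted p = 9.41e-13). The lowest control was replicate 1, and without it the LFCs were -3.16 and -3.74.

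Apex1, the main endonuclease that cuts the backbone at sites that have lost a base, measured 9.96, 10.93 and 10.84 in controls, 8.68, 8.48 and 8.33 with T247 and 8.60, 8.70 and 8.56 with MGCD0103. The treated arrays lay close together and well below every control. The LFCs were -2.08 ± 0.19 (adjusted p = 1.92e-10) and -1.96 ± 0.19 (adjusted p = 5.40e-10). At the 1-cell stage the same treatments left Apex1 at 11.29 and 11.29, beside 11.05 in controls.

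The 2 genes of this group that MGCD0103 raised encode DNA glycosylases, Ogg1 for oxidized guanine and Ung for uracil. Ogg1 measured 9.82, 7.69 and 8.01 in controls, 9.04, 9.31 and 9.40 with T247 and 10.10, 9.80 and 9.95 with MGCD0103. Control replicate 1 lay within the MGCD0103 range and above the T247 arrays, and the other controls lay far below both, so that the groups overlapped. The test gave LFC 1.44 ± 0.27, adjusted p = 5.39e-05 for MGCD0103 and 0.74 ± 0.27, not called, for T247. Ung measured 13.76, 12.70 and 12.997 in controls, 13.59, 13.64 and 13.51 with T247 and 14.45, 14.27 and 14.28 with MGCD0103. Here the MGCD0103 arrays were above all controls (LFC 1.18 ± 0.16, adjusted p = 1.92e-07, lost without control replicate 2 at an LFC of 0.995), while T247 gave an LFC of 0.43 ± 0.16. Xrcc1, Lig1, Lig3 and Parp1, which act in the repair of single-strand breaks, were not called with either inhibitor. A second Lig3 probe gave LFCs of -1.39 with T247 and -0.43 with MGCD0103. Without control replicate 1, Xrcc1 was called lower with both (-1.30 and -1.24), and T247 lowered Lig1 (-1.19) and raised Ogg1 (1.23).

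Of 13 homologous recombination genes, each inhibitor raised 1 and lowered 2, and these were the same 3 genes. Rad51c measured 12.70, 11.85 and 12.22 in controls, 13.89, 13.80 and 13.63 with T247 and 14.33, 14.14 and 14.26 with MGCD0103. All treated arrays exceeded all controls, as at the 1-cell stage (LFC 1.52 ± 0.15, adjusted p = 5.57e-10 and LFC 1.99 ± 0.15, adjusted p = 1.96e-12). Rad51c fell between the untreated 1-cell and 2-cell stages, from 14.83 to 12.26, and the treated 2-cell means of 13.77 and 14.25 lay between these levels. Treated 1-cell arrays of Rad51c were at 16.49 to 16.62 with T247 and 16.49 to 16.63 with MGCD0103, so that its treated 2-cell signals were also lower than the treated 1-cell ones. Its single probe was matched by symbol, since it carries the accession of an Ensembl transcript.

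Fignl1 encodes an AAA ATPase that acts in homologous recombination. Its signals were 9.31, 9.62 and 9.69 in controls, 7.54, 7.58 and 7.39 with T247 and 8.45, 8.18 and 8.10 with MGCD0103. All groups were apart, with T247 lowest (LFC -2.04 ± 0.12, adjusted p = 1.08e-13) and MGCD0103 between T247 and the controls (LFC -1.30 ± 0.12, adjusted p = 4.40e-10). A second probe gave LFCs of -1.65 and -1.0.

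Rad51ap1, whose product stimulates strand pairing in recombination, measured 9.01, 10.95 and 10.92 in controls, 8.84, 8.67 and 8.81 with T247 and 7.92, 8.15 and 8.24 with MGCD0103. Control replicate 1 lay just above the T247 arrays and almost 2 log2 units below the other controls. The LFCs were -1.52 ± 0.27 (adjusted p = 2.06e-05) and -2.19 ± 0.27 (adjusted p = 6.67e-08), and without that array -2.25 and -2.92. The central recombination genes Brca1, Brca2, Bard1 and Palb2 were not called with either inhibitor, with LFCs between -0.82 and 0.60, but without that array Bard1 was called lower with T247 (-1.14) and Palb2 and Wrn higher with MGCD0103 (1.03 and 1.27).

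In the Fanconi anaemia pathway, Fanca and Fancd2 fell with both inhibitors, while Fanci and Fancl were not called. Fanca, a subunit of the core complex that ubiquitinates the FANCD2 and FANCI proteins, measured 8.03, 10.35 and 10.28 in controls, 8.31, 8.13 and 8.23 with T247 and 7.08, 7.22 and 7.12 with MGCD0103. MGCD0103 arrays were below all controls (LFC -2.42 ± 0.30, adjusted p = 8.89e-08), whereas the T247 arrays overlapped control replicate 1 (LFC -1.33 ± 0.30, adjusted p = 0.000456). Without that array the LFCs were -3.28 and -2.19, and Fancl was called lower with T247 (-1.03) and Fanci higher with MGCD0103 (1.24). The Fanca call with T247 was lost without control replicate 2 or 3 and under 75th-percentile scaling. Fancd2 had LFCs of -1.35 ± 0.21 with T247 and -1.22 ± 0.21 with MGCD0103, and its groups did not overlap. Both Fancd2 calls were lost under 75th-percentile scaling and normexp, and the MGCD0103 call also without control replicate 2.

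Both mismatch repair genes fell with T247, and Pms2, a subunit of the MutL complex that nicks the strand to be repaired, also with MGCD0103 (-1.76 ± 0.16 and -2.13 ± 0.16). A second Pms2 probe gave -1.33 and -1.92. Msh6, which takes part in recognizing the mismatch, had an LFC of -1.19 ± 0.12 with T247 and of -0.63 ± 0.12, not called, with MGCD0103. The scaling decided the Msh6 call, which was lost under 75th-percentile scaling and quantile normalization.

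Polh fell with T247 (LFC -1.20 ± 0.25, adjusted p = 0.000135, lost without control replicate 2) and MGCD0103 (LFC -2.14 ± 0.25, adjusted p = 1.75e-08), a direction opposite to that of the 1-cell stage for MGCD0103. Of the other lesion bypass genes, Rad18, the ubiquitin ligase that modifies the sliding clamp at stalled forks, rose with MGCD0103 (LFC 1.01 ± 0.19, adjusted p = 3.47e-05), and Rev1 was not called. The Rad18 call held in 10 of 15 other settings and was lost with the mean of probes and without control replicate 2 or 3 or MGCD0103 replicate 1, and a second probe gave an LFC of 0.45. Xpa, which verifies the damage in nucleotide excision repair, was called lower with both inhibitors (LFC -1.08 ± 0.46, adjusted p = 0.0497 and LFC -1.34 ± 0.46, adjusted p = 0.0148), but its controls of 6.32, 10.06 and 9.70 spanned the treated values of 7.70, 7.5 and 7.64 and 7.03, 7.42 and 7.61. With T247 the Xpa call held in 2 of 15 other settings. Ercc1 and Xpc were not called.

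Among 10 damage sensing and checkpoint genes, T247 lowered Trp53bp1, whose product binds chromatin at breaks and favours end joining (LFC -1.33 ± 0.11, adjusted p = 4.08e-11), a call that was lost under both other scalings. MGCD0103 lowered Chek2, a checkpoint kinase downstream of ATM (LFC -1.43 ± 0.23, adjusted p = 7.22e-06). The kinases Atm, Atr and Chek1 and the MRN subunits Mre11a, Rad50 and Nbn, which sense broken ends, were called with neither inhibitor. Without control replicate 1, T247 lowered Atm (-1.09) and Chek2 (-1.30) and MGCD0103 raised Atr (1.09). None of the 4 end joining genes was called, with LFCs between -0.56 and -0.20 for T247 and between -0.46 and 0.59 for MGCD0103, and without control replicate 1 Xrcc4 was called higher with MGCD0103 (1.03).

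**Figure D3:**
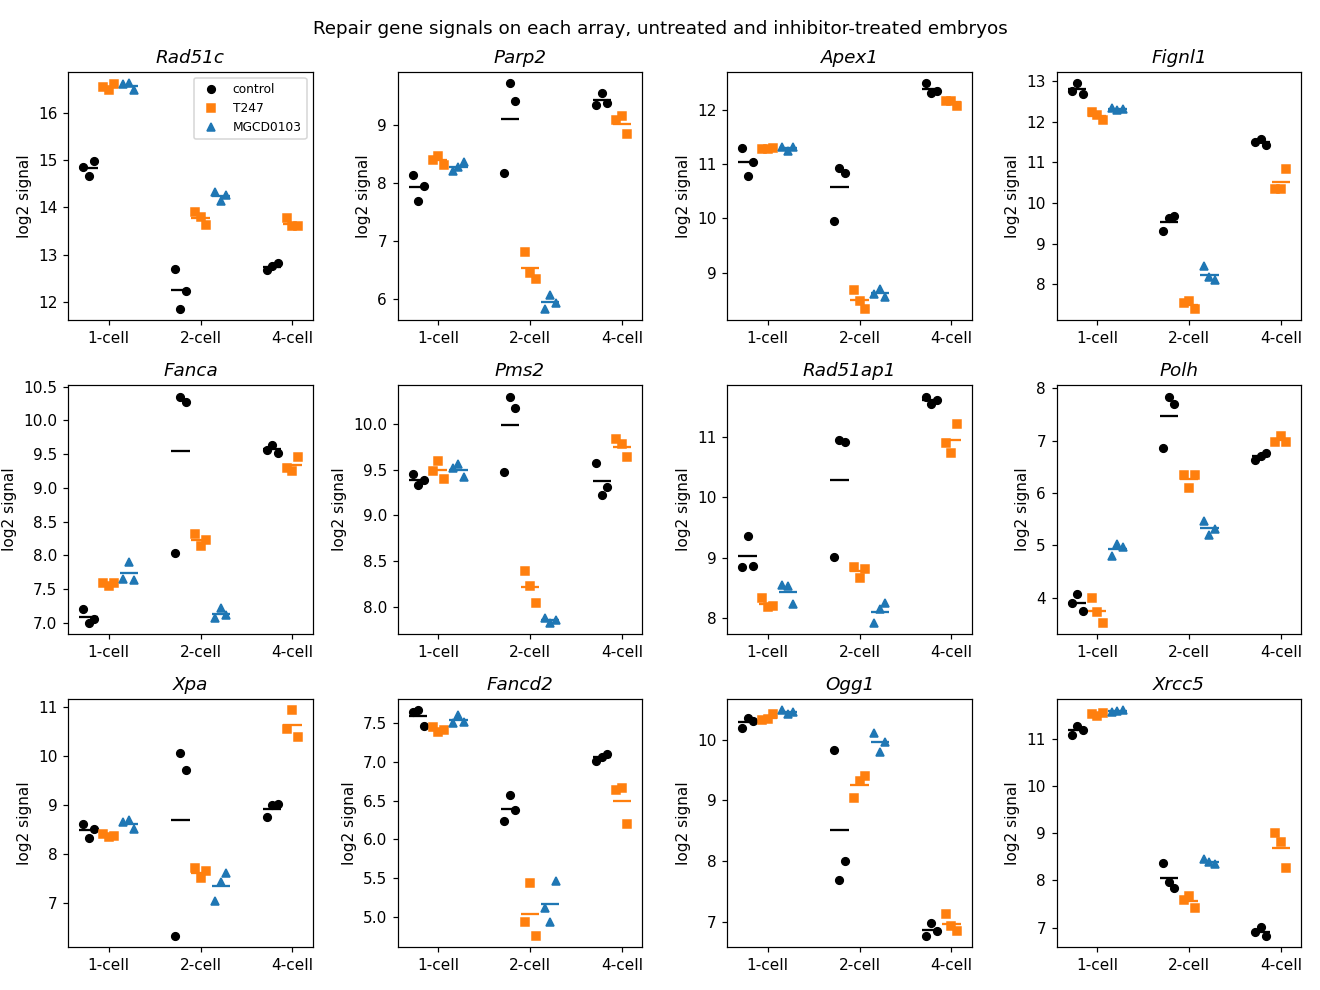
Log2 signal (vertical axis) on each array for 12 repair genes in 1-cell, 2-cell and 4-cell embryos, untreated (black circles), with T247 (orange squares) and with MGCD0103 (blue triangles); short lines are means of 3 arrays. Treated 2-cell points of Parp2, Apex1, Fignl1 and Pms2 lie below all controls, those of Rad51c above them, and the 2-cell controls of Xpa, Fanca, Rad51ap1 and Ogg1 are split by replicate 1.

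Promoters of the repair genes were looked up in the RefSeq windows of GRCm38.p6, and 41 of the 47 genes matched, with 47 windows. In the 250 bases before the start, 5 motif families were searched on both strands: NRF1 (GCGCATGC), NFY (CCAAT), SP/KLF (GGGCGG), ETS (CCGGAAGT) and E2F (TTTCGCGC, TTTGGCGC, TTCCCGCC or TTTCCCGC). No motif overlapped one of another family in these windows. The NRF1 core was in 8 of 47 windows of the repair genes (17%) and in 3.89% of the windows of all genes tested, and NFY in 38.3% and 35.4%, SP/KLF in 66% and 51.8%, ETS in 6.38% and 5.19%, and E2F in 12.8% and 4.94%. Among the 9 genes lowered by both inhibitors at the 2-cell stage, 8 had a window. SP/KLF was in 6 of these 8, NFY in 5, the NRF1 core in 4, and E2F and ETS in 0. The 4 with the NRF1 core were Parp2, Fignl1, Xpa and Polh, where its last base lay 45, 16, 9 and 85 to 110 bases before the start. Of the genes that fell with both inhibitors under all 3 scalings, Parp2 and Fignl1 held the core and Apex1, Pms2 and Rad51ap1 did not. The 9 were chosen by their values, and these counts have no test. The 4 with the NRF1 core are shown with Apex1, which holds NFY and SP/KLF motifs, and Rad51c, the gene raised by both, of which 1 of 2 windows is given. All motif matches are in capitals.
Parp2 (chr14:50807666-50807915, plus strand): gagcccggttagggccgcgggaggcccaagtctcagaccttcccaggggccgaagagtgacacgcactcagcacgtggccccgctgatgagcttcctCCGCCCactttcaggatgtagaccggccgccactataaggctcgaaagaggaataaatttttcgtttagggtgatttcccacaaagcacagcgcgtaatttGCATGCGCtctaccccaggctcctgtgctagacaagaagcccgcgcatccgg
Fignl1 (chr11:11808963-11809212, minus strand): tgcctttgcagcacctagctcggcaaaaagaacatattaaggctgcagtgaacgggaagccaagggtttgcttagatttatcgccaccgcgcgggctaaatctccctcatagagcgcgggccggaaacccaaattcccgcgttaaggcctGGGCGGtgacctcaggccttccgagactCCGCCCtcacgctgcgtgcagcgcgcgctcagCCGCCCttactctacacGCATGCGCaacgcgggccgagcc
Xpa (chr4:46196312-46196561, minus strand): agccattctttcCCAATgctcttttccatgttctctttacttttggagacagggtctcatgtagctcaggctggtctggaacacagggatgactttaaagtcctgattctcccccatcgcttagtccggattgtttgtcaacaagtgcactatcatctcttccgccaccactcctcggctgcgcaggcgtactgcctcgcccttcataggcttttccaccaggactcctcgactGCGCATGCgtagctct
Polh (chr17:46202642-46202891, minus strand): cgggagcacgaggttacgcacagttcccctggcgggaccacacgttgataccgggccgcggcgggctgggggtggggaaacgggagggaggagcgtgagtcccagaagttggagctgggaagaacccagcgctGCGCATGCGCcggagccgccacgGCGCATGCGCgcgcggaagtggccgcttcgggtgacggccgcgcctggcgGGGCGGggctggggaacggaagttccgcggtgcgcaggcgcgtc
Apex1 (chr14:50924699-50924948, plus strand): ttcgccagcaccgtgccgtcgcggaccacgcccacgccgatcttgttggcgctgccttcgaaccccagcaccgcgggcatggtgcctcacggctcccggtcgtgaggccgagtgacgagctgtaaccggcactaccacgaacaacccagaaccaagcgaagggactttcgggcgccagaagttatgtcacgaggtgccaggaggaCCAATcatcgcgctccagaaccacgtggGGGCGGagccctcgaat
Rad51c (chr11:87404507-87404756, minus strand): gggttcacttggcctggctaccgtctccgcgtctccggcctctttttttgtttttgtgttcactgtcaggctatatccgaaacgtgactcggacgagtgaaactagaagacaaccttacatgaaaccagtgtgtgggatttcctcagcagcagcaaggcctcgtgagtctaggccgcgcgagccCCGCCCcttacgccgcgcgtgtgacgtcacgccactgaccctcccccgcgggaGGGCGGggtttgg
The capitals GCGCATGC or GCATGCGC are the NRF1 core, which occurs in Polh as 2 palindromic pairs of overlapping matches, CCAAT is NFY, and GGGCGG or CCGCCC is SP/KLF. The Rad51c window held only SP/KLF motifs of the 5 families. A match is a description of the letters and no binding was measured.

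In 4-cell embryos, T247 raised 3 repair genes and lowered 3, against 11% of all genes called higher and 6.4% lower. With 75th-percentile scaling the split was 4 and 2, and with quantile normalization 2 and 3. The median LFC was -0.38 for the 47 genes and -0.03 for all genes. Xrcc5, Xpa, Fancl and Bard1 kept their calls under all 3 scalings, and Rad51c was at an LFC of 0.91 ± 0.15, below the threshold.

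Xrcc5 encodes the larger subunit of Ku, the ring that captures broken ends for end joining. Its signals were 6.91, 7.0 and 6.82 in controls and 8.99, 8.82 and 8.26 with T247. The T247 arrays were all above the controls, a 3.43-fold rise (LFC 1.78 ± 0.14, adjusted p = 1.04e-10), while Xrcc6, the other Ku subunit, had an LFC of -0.08 ± 0.12. Xpa measured 8.75, 8.99 and 9.01 in controls and 10.54, 10.93 and 10.39 with T247. It was higher on every T247 array (LFC 1.71 ± 0.46, adjusted p = 0.00322), and a second probe gave 1.71.

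Brca1, the ubiquitin ligase that directs breaks to homologous recombination, was dim at this stage. It measured 2.51, 3.55 and 4.08 in controls, none well above background, and 5.15, 4.84 and 3.35 with T247, of which 2 arrays were. The groups overlapped, the rise was at least 1.13-fold (adjusted p = 0.0182), and it was lost without 4-cell control replicate 1 (LFC 0.59), T247 replicate 1 (0.76) or T247 replicate 2 (0.80).

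Fancl, the ubiquitin ligase subunit of the Fanconi core complex, measured 9.12, 9.07 and 9.31 in controls and 7.39, 6.71 and 7.92 with T247. All T247 arrays were lower (LFC -1.83 ± 0.24, adjusted p = 4.17e-07), and a second probe gave an LFC of -1.39. Bard1, the partner of Brca1, measured 9.15, 9.28 and 9.18 in controls and 7.92, 7.10 and 8.45 with T247. All T247 arrays were below the controls (LFC -1.38 ± 0.23, adjusted p = 1.04e-05), but the 2 other Bard1 probes gave -0.95 and 0.26.

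Fignl1, at 11.51, 11.58 and 11.44 in controls and 10.36, 10.34 and 10.84 with T247, was lower on all T247 arrays and at the threshold (LFC -1.0 ± 0.12, adjusted p = 1.75e-07). The call held in 6 of 15 other settings and was lost without control replicate 2 or 3 or T247 replicate 1 or 2. Of the genes lowered at the 2-cell stage, Parp2, Apex1 and Pms2 were at LFCs of -0.40, -0.24 and 0.38 here and were not called. No gene of damage sensing, base excision repair, mismatch repair or lesion bypass was called at the 4-cell stage.

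The inhibitors were also compared directly, on different slides. At the 1-cell stage 1 repair gene was called higher with MGCD0103 than with T247 (Polh) and 0 lower, against 0.061% and 0.224% of all genes. This Polh call held in 8 of 14 other settings. At the 2-cell stage 3 were higher and 1 lower, against 3.33% and 2.81% of all genes, with 0 and 2 under 75th-percentile scaling and 1 and 2 under quantile normalization. Rad52, an annealing protein, measured 7.80, 7.83 and 7.80 with T247 and 9.16, 8.98 and 8.88 with MGCD0103, and Lig1, the replicative DNA ligase, 10.29, 10.48 and 10.41 and 11.47, 11.56 and 11.55. Both were higher on every MGCD0103 array (LFC 1.2 ± 0.19, adjusted p = 2.81e-05 and LFC 1.13 ± 0.10, adjusted p = 1.36e-08). Trp53bp1 was also higher (1.05 ± 0.11) and Fanca lower (-1.09 ± 0.30). Of these 2-cell calls only that of Fanca held under all 3 scalings. The Lig1 call was lost under both other scalings and the Rad52 call under 75th-percentile scaling. For Parp2, Apex1 and Rad51c the difference between the inhibitors was -0.59 ± 0.22, 0.12 ± 0.19 and 0.47 ± 0.15, not called.

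Whether an effect differed between stages was tested as the difference of the LFCs. Between the 1-cell and 2-cell stages the effect of T247 became more negative in 11 genes and more positive in 0, where 16% and 4.31% of all genes were called. For MGCD0103 it became more negative in 9 and more positive in 1 (Ogg1), against 16.8% and 6.46%. Between the 2-cell and 4-cell stages the effect of T247 became more positive in 10 and more negative in 0, against 19.3% and 7.73%. With 75th-percentile scaling the splits, higher before lower, were 1 and 4, 4 and 7, and 7 and 3, and with quantile normalization 1 and 8, 6 and 9, and 9 and 4. Parp2 had the largest changes among the 47 at the first step, -3.03 ± 0.31 and -3.51 ± 0.31, and Rad51c changed by -0.20 ± 0.21 and 0.25 ± 0.21, neither called. Without replicate 1 of the 2-cell controls the numbers called rose to 18, 19 and 17, and without replicate 2 the first fell to 7.

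In untreated development the difference between the highest and the lowest stage mean of a repair gene ran from 1.19 log2 units (Pms2) to 7.20 (Fancl). The 2-cell stage held the lowest level of 15 genes, and of 12 and 13 under the other scalings. The highest level lay in GV oocytes for 28 genes, but for only 6 with 75th-percentile scaling and 8 with quantile normalization. Smooth quantile normalization keeps part of the difference in distribution between conditions, and the median over all genes from GV to MII oocytes was -0.97, and 0.50 and 0.30 under the others.

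From GV to MII oocytes 24 repair genes were called lower and 0 higher, against 48.9% and 0.529% of all genes, while 75th-percentile scaling gave 14 higher and 10 lower and quantile normalization 13 and 10. The 10 genes called lower under all 3 were Apex1, Chek2, Ercc1, Fanca, Mre11a, Parp2, Xpa, Xrcc1, Xrcc3 and Xrcc6. Ercc1, a subunit of the nuclease that cuts beside a bulky lesion, went from 10.35, 10.11 and 10.15 to 5.35, 5.67 and 5.41. Mre11a, the nuclease of the MRN complex, went from 12.39, 12.33 and 12.46 to 8.10, 7.87 and 8.00. Both were lower on every MII array by over 4 log2 units (LFC -4.72 ± 0.21, adjusted p = 1.14e-18 and LFC -4.41 ± 0.11, adjusted p = 3.69e-25). The size of the fall depended on the processing: over the other settings the LFCs ran from -4.81 to -2.84 for Ercc1 and from -4.50 to -2.64 for Mre11a.

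From MII oocytes to 1-cell embryos 8 genes rose and 4 fell, against 17.2% and 5.67% of all genes, and all 12 calls held under the other scalings. Xrcc6 rose from 10.07, 10.31 and 10.32 to 12.76, 12.51 and 12.55 and Mre11a to 10.25, 9.86 and 10.23. Neither overlapped with its MII values (LFC 2.37 ± 0.12, adjusted p = 6.05e-16 and LFC 2.12 ± 0.11, adjusted p = 3.20e-16). Xrcc1, the scaffold of single-strand break repair, fell from 12.26, 12.15 and 12.10 to 9.51, 9.88 and 9.49 and Rad51ap1 from 10.87, 10.55 and 10.61 to 8.84, 9.35 and 8.86. Both were lower on all 1-cell arrays (LFC -2.55 ± 0.15, adjusted p = 2.19e-14 and LFC -1.66 ± 0.27, adjusted p = 6.71e-06). The other genes that rose were Rad51c, Rad52, Chek2, Parp2, Ung and Apex1, and Lig4 and Polh fell, Polh by at least 1.63-fold. Chek2 had been dim in MII oocytes and was at least 2.24-fold higher in 1-cell embryos.

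At the 2-cell stage, compared with 1-cell embryos, 30 repair genes fell (63.8%) and 5 rose (10.6%), against 34% and 18.3% of all genes. The other scalings gave 22 lower and 7 higher, and 24 and 7, and 22 of the 30 fell under all 3. The median LFC was -1.43 for the 47 genes and -0.50 for all. The end joining genes Xrcc4, Xrcc5 and Xrcc6 fell by over 2 log2 units each, at LFCs of -3.10 ± 0.31, -3.12 ± 0.14 and -2.47 ± 0.12, and the steepest fall was that of Fancl.

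Fancl went from 9.04, 9.19 and 9.19 to 4.82, 4.53 and 4.44, and Fignl1 from 12.76, 12.95 and 12.69 to 9.31, 9.62 and 9.69. Neither gene overlapped between the stages (LFC -4.54 ± 0.24, adjusted p = 1.42e-16 and LFC -3.26 ± 0.12, adjusted p = 6.76e-20). Polh, dim in 1-cell embryos, reached 6.85, 7.84 and 7.70 and was at least 8.66-fold higher (adjusted p = 8.32e-14). Chek2 rose from 5.52, 5.44 and 5.08 to 7.36, 8.31 and 8.13 (LFC 2.59 ± 0.23, adjusted p = 3.52e-11).

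The 5 genes that rose at this step were Polh, Chek2, Fanca, Rad51ap1 and Parp2, and the 2-cell controls that define the rise are those of the inhibitor comparisons, so that only levels are set side by side. The calls of Parp2 and Rad51ap1 were lost without 2-cell control replicate 2 or 3, with LFCs down to 0.74 and 0.84. Parp2 averaged 7.92 in 1-cell and 9.10 in 2-cell controls, and 8.39 and 6.53 in 1-cell and 2-cell embryos given T247. Fanca averaged 7.09 and 9.55 in controls, 7.57 and 8.23 with T247, and 7.73 and 7.14 with MGCD0103. Chek2 averaged 5.35 and 7.94 in controls, 5.42 and 7.08 with T247, and 5.57 and 6.51 with MGCD0103. In these means Parp2 was lower in treated 2-cell than in treated 1-cell embryos, Fanca was lower only with MGCD0103, and Chek2 was higher with both.

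At the 4-cell stage, compared with 2-cell embryos, 14 genes rose and 11 fell, against 25.9% and 34.2% of all genes. Fancl returned from 4.82, 4.53 and 4.44 to 9.12, 9.07 and 9.31 and Bard1 from 4.72, 4.67 and 5.61 to 9.15, 9.28 and 9.18. Both were higher on every 4-cell array (LFC 4.57 ± 0.24, adjusted p = 5.58e-17 and LFC 4.20 ± 0.23, adjusted p = 1.02e-16), and over the other settings the LFCs ran from 2.92 to 5.33 and from 1.70 to 4.95. Parp1, the main poly(ADP-ribose) polymerase, and Lig3, the ligase partner of Xrcc1, rose with LFCs of 3.5 ± 0.14 and 3.38 ± 0.21.

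Wrn, a RecQ helicase, went from 9.18, 7.52 and 7.51 to 3.86, 4.13 and 3.37, no longer well above background, a fall of at least 14-fold (adjusted p = 1.68e-11). Chek1, the checkpoint kinase downstream of ATR, went from 7.48, 6.38 and 6.30 to 4.48, 3.91 and 4.31, with 1 of 3 4-cell arrays well above background (LFC -2.49 ± 0.27, adjusted p = 7.95e-10, and -0.99, not called, with normexp). Both were lower on all 4-cell arrays, and Brca1 and Xrcc4 also fell at this step to signals that were dim on 3 and 2 of 3 arrays.

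From the 4-cell to the 8-cell stage only 3 repair genes were called, all higher, against 8.04% of all genes higher and 6.67% lower, and the other scalings called 1 higher and 0 lower, and 1 and 1. Xrcc6 went from 9.63, 9.53 and 9.33 to 10.85, 10.78 and 10.40 and Xrcc4, the cofactor of ligase 4, from 4.26, 4.33 and 5.19 to 5.57, 6.04 and 5.21. The 8-cell values lay above the 4-cell ones (LFC 1.18 ± 0.12, adjusted p = 1.13e-08 and LFC 1.01 ± 0.31, adjusted p = 0.00843), with 1 of 3 4-cell arrays of Xrcc4 well above background and its call held in 8 of 13 other settings. The third was Fancl (1.01 ± 0.24), and none of the 3 was called under both other scalings. The count was 1 without 4-cell replicate 1 or 8-cell replicate 2, and 7 without 8-cell replicate 1.

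From the 8-cell stage to the morula 16 genes rose and 2 fell, against 31.8% and 6.24% of all genes, and 6 and 5 or 5 and 5 under the other scalings. The median over all genes was 0.56, and -0.18 and -0.04 under the others. Xrcc4 rose from 5.57, 6.04 and 5.21 to 8.67, 8.58 and 8.64. Brca1 went from 4.09, 2.58 and 3.28, not well above background, to 5.86, 5.48 and 5.67. The morula arrays were higher throughout, with LFC 3.03 ± 0.31, adjusted p = 6.86e-10 for Xrcc4 and a rise of at least 2.58-fold for Brca1 (adjusted p = 1.98e-06).

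Brca2, a mediator of homologous recombination, fell from 12.75, 12.94 and 13.38 to 11.12, 11.22 and 11.30 and Trp53bp1 from 11.36, 10.93 and 11.30 to 9.90, 9.85 and 9.80. Neither gene overlapped between the stages (LFC -1.81 ± 0.11, adjusted p = 6.72e-15 and LFC -1.35 ± 0.11, adjusted p = 8.89e-12). Lig1, Ogg1 and Xrcc5 were the other genes called higher under all 3 scalings.

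From the morula to the blastocyst 6 genes rose and 5 fell, against 19.4% and 7.88% of all genes, and 4 and 5 or 2 and 5 under the other scalings. Xrcc5 rose from 9.83, 10.07 and 9.80 to 11.38, 11.13 and 11.64 and Wrn, dim in morulae, reached 6.27, 5.74 and 6.09. All blastocyst arrays were higher, Xrcc5 with LFC 1.49 ± 0.14, adjusted p = 3.63e-10 and Wrn at least 2.95-fold (adjusted p = 3.49e-06). Atm, the apical kinase of the break response, fell from 8.81, 8.54 and 8.72 to 7.28, 7.12 and 7.20 and Polh from 5.96, 6.25 and 5.78 to 3.78, 5.38 and 4.91. The blastocyst arrays were below all morula arrays (LFC -1.49 ± 0.13, adjusted p = 3.01e-11 and LFC -1.31 ± 0.25, adjusted p = 4.45e-05), with 2 of 3 blastocyst arrays of Polh well above background and its call lost without blastocyst replicate 1 (LFC -0.75).

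Since untreated replicates of one number shared a slide, the steps could also be read within slides. The LFC was at least 1 in size and of one sign on all 3 slides for 23 of 24, 11 of 12, 23 of 35, 19 of 25, 1 of 3, 15 of 18 and 6 of 11 called genes from the GV to the blastocyst step. These genes were called on the same arrays, so that the counts are no independent evidence.

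**Figure D4:**
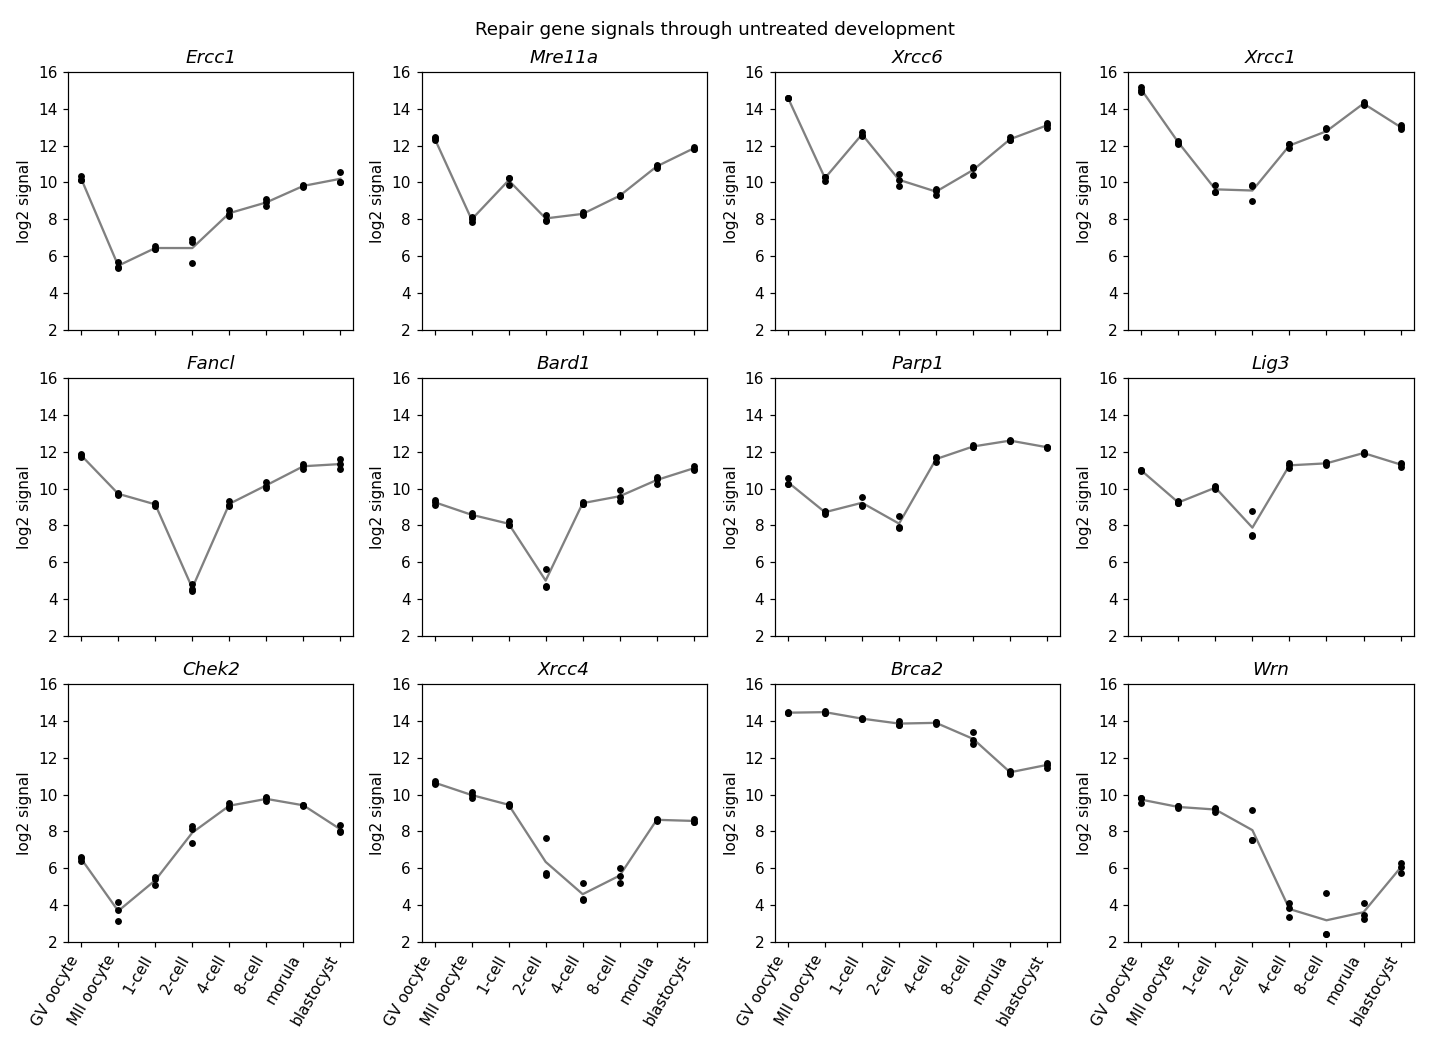
Log2 signal (vertical axis, 2 to 16) of 12 repair genes in untreated oocytes and embryos of 8 stages (horizontal axis); points are arrays, 3 per stage, and the line joins their means. Fancl and Bard1 drop at the 2-cell stage and return at the 4-cell stage, Xrcc4 and Wrn fall to dim signals by the 4-cell stage, and Brca2 falls at the morula stage. The drop from GV to MII oocytes depends on the scaling for most genes.

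A wider list of 96 other repair genes had 89 among the genes tested. T247 raised 1 of the 89 (1.12%) and lowered 0 at the 1-cell stage and MGCD0103 called 0 in either direction. Of all genes, 5.52% were called higher and 0.82% lower with T247 at that stage, and 3.56% and 0.617% with MGCD0103. At the 2-cell stage T247 raised 5 and lowered 12 and MGCD0103 raised 11 and lowered 13, and at the 4-cell stage T247 raised 3 and lowered 12. In percent these were 5.62 higher and 13.5 lower, 12.4 and 14.6, and 3.37 and 13.5, beside 8.32 and 17.2, 11.8 and 16.3, and 11 and 6.4 of all genes. The medians at the 2-cell stage were -0.49 and 0.02. The largest rises were those of Ercc5, the nucleotide excision nuclease XPG (3.18 ± 0.59 with T247 and 2.19 ± 0.59 with MGCD0103), and Dclre1c, the end-processing nuclease Artemis (2.29 ± 0.23 and 2.71 ± 0.23). The largest falls were those of Eme1 and H2ax with T247 (-1.75 ± 0.20 and -1.75 ± 0.29) and of Rad9a and Ercc3 with MGCD0103 (-2.10 ± 0.30 and -1.67 ± 0.14). Eme1 is a subunit of a structure-specific nuclease, H2ax the histone that is phosphorylated at breaks, Rad9a a checkpoint clamp subunit and Ercc3 a helicase of TFIIH.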

How the data were processed

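Gene expression was measured on 39 1-colour Agilent mouse arrays, 3 for each of 13 conditions. The authors deposited scanner files in which the intensity of each spot is the background-subtracted signal that Agilent Feature Extraction computed, with on/off flags for signals that are positive and significant or well above background (other values). The file headers name Feature Extraction 10.7.1.1 and the submitters' processing notes 9.5.1.1. The authors also deposited a table of normalized log2 values, used as an alternative.

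Steps of the study's methods were rebuilt in R 4.3.3. Of 31398 named probes, 19748 were kept, namely those positive and significant on at least 1 array of each of the 13 conditions, so that a gene undetected in 1 condition was not tested. The 2.10% of values not flagged so were filled in by regression on the other arrays with a trimmed covariance. The brightest probe represented each gene, log2 signals were smooth quantile normalized, and limma 3.58.1 was fitted over all 39 arrays without a block, with Benjamini-Hochberg adjustment over 14755 genes. Calls needed an absolute LFC of 1 or more together with an adjusted p under 0.05. The filling in and the smooth quantile step were written anew for this work and can differ from the packages the authors used. Probes were named from RefSeq by accession (27318), current symbol (3527) or synonym (553), and 24283 probes had no name. The share of spots well above background was 43.7% to 57.4% per array and no probe was saturated, and the number of arrays limits the precision.

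How often the fit missed a changed gene or called an unchanged one on these arrays was not tested. The 47 genes, their roles and the wider repair list were chosen with earlier results of these data known. Values on every array are printed for up to 3 called genes in each direction, by size of LFC, in each inhibitor comparison, for the first 2 in each direction of a step between stages and for the first 2 of the direct comparison. Other genes are given by counts and ranges or with their LFC. "At least" folds set the mean of the brighter group against, on each array of the dimmer one, whichever is higher of its own signal and the dimmest gene that was well above background. Alternatives were 75th-percentile scaling, quantile normalization, normexp background correction, another detection filter with nothing filled in, the mean of probes, the deposited normalized table, a fit on 24 arrays of the 1-cell to 4-cell stages, the replicate number as a block, slide as a random block and leaving out each replicate. Same-numbered untreated replicates shared a slide. Deviations of same-numbered samples correlated at over 0.1 in all 3 pairs only from GV to MII oocytes (0.14 to 0.24) and from the 4-cell to the 8-cell stage (0.17 to 0.24). No comparison with an inhibitor had all 3 pairs over 0.1. With MGCD0103 at the 2-cell stage 2 of 3 pairs were at 0.22 and the other at 0.01, and with T247 there the pairs ran from -0.19 to -0.07.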

Additional observations from a re-analysis of the deposited data

Results flagged for a closer look

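A total of 31 results drew attention because the effect of an inhibitor on a repair gene differed between stages by a direct test of the change in LFC (limma, adjusted p below 0.05 and a change of at least 1 in size). Values are the change in LFC on the log2 scale. Between the 1-cell and 2-cell stages the effect of T247 became more negative for Parp2 (-3.03), Apex1 (-2.33), Pms2 (-1.86), Fanca (-1.81), Fignl1 (-1.38), Fancd2 (-1.18), Nbn (-1.14), Msh6 (-1.13), Fancl (-1.11), Lig1 (-1.11) and Polh (-1.04). For MGCD0103 over the same stages the change was called for Parp2 (-3.51), Polh (-3.16), Fanca (-3.06), Pms2 (-2.24), Apex1 (-2.21), Chek2 (-1.64), Rad51ap1 (-1.60), Ogg1 (1.27), Fancd2 (-1.17) and Xrcc1 (-1.0). Between the 2-cell and 4-cell stages the effect of T247 became more positive for Xpa (2.78), Xrcc5 (2.28), Parp2 (2.17), Pms2 (2.15), Apex1 (1.84), Msh6 (1.71), Polh (1.5), Brca1 (1.5), Fanca (1.09) and Fignl1 (1.04). Fignl1, Parp2, Apex1, Msh6, Pms2, Fanca and Polh stand in both T247 lists, with opposite signs, and these lists share the 2-cell arrays. Some of these calls were close to the threshold: Fanca between the 2-cell and 4-cell stages was called in 9 of 21 other settings, Xrcc1 with MGCD0103 in 9 of 21 and Polh with T247 between the 1-cell and 2-cell stages in 11 of 20. The values of Brca1 in 4-cell embryos and of Polh in 1-cell embryos rest partly on spots that were not well above background. The part of slide and of 2-cell control replicate 1 in these changes was not tested beyond the values without that array.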

How the results depend on the processing

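The counts of called repair genes stayed within 1.5 times in 232 of 268 comparisons with another setting, and 619 of 663 values of the genes printed by array kept their call and none of these turned its sign. Among the other called genes Fanci from GV to MII oocytes went from -1.42 to as high as 0.14. With the replicate number as a block, the 2-cell counts were 12 with T247 and 14 with MGCD0103, as without it, and it changed no other count. With slide as a random block (correlation 0.07) they were 11 and 14. The count for MGCD0103 at the 1-cell stage went from 2 to 1 with 75th-percentile scaling, quantile normalization, normexp, the deposited table and a fit on 24 arrays, and for T247 from 1 to 2 with the mean of probes. With 75th-percentile scaling T247 at the 2-cell stage gave 7, the direct 2-cell comparison 2, the 8-cell step 1, the morula step 11 and the change in T247 effect to the 2-cell stage 5. Quantile normalization gave 10 at the morula and 7 at the blastocyst step. With normexp the direct 1-cell comparison gave 0, the 8-cell step 1, the blastocyst step 5 and the change in T247 effect to the 2-cell stage 7. The deposited table, which held 42 of the 47 genes, gave 0 and 6 for the direct 1-cell comparison and the blastocyst step, and detection in at least 1 condition gave 0 for the former. The cause was not tested.

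Without each replicate in turn, the counts ranged in 1-cell embryos from 1 to 1 with T247 and from 1 to 2 with MGCD0103, from 9 to 19 and 10 to 20 at the 2-cell stage and from 4 to 7 for T247 at the 4-cell stage. They ranged from 0 to 1 and 3 to 5 for the direct comparisons at the 1-cell and 2-cell stages. From the GV to the blastocyst step they ranged from 24 to 25, 11 to 13, 31 to 36, 25 to 28, 1 to 7, 17 to 23 and 8 to 11, and for the changes in effect from 7 to 18, 7 to 19 and 8 to 17. The highest values at the 2-cell stage came without 2-cell control replicate 1. Where a spot was not well above background, as for Brca1, Wrn, Chek2, Xrcc4 and Polh in some conditions, the signal limits the fold to a bound.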
